A study of Drosophila melanogaster with 6 samples.

Results

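Translation initiation factors (eIFs) are the proteins that bring the small ribosomal subunit, the initiator methionyl-tRNA and an mRNA together and place the ribosome at a start codon. Members were all probe sets that the platform annotation of the Affymetrix Drosophila_2 array gives to a single gene whose symbol begins with eIF. This rule uses names only and found 44 probe sets for 40 genes, out of 13647 probe sets with a single gene among 18769 that measure fly transcripts. Another 2 probe sets that eIF4E7 shares with a second gene were left out, and eIF1A, eIF2alpha, eIF2gamma and eIF4H1 were not analysed here.

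The study used Drosophila S2 cells, a line of embryonic origin with blood-cell-like features, that were given double-stranded RNA (dsRNA) and kept for 5 days. The dsRNA matched GFP, which has no fly target, in 3 control samples and spotted-dick, now named pita, a zinc-finger DNA-binding protein gene, in the other 3. One dsRNA per group is named, so loss of pita and other effects of that dsRNA cannot be told apart, and S2 is a single line. Each sample was hybridised to its own array, and nothing states that replicates were separate cultures, so p-values measure only the spread between these samples, which may be technical.

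In the main pathway of initiation, eIF2 carries the initiator tRNA and its exchange factor eIF2B reloads it with GTP. The large eIF3 complex holds the small subunit, while eIF1 guards the choice of the start codon. The cap-binding protein eIF4E, the scaffold eIF4G and the RNA helicase eIF4A recruit the mRNA. Then eIF5 and eIF5B let the large subunit join, and eIF6 keeps free large subunits apart from small ones. Fast-growing cells depend on this machinery, and the phosphorylation of eIF2 and the sequestering of eIF4E are its known control points, neither of which mRNA levels report.

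Values below are array signals after quantile normalization, which gives every array the same distribution of signals, and changes are differences of log2(signal + 16), spotted-dick RNAi minus GFP RNAi. The targeted transcript pita had normalized signals of 253.0, 297.5 and 313.8 under GFP RNAi and 25.9, 52.1 and 32.9 under spotted-dick RNAi (log2 change -2.55 ± 0.16, SE, n = 3 and 3, limma adjusted p = 7.56e-08). A probe set was called at a limma adjusted p under 0.05, and 230 of 11261 tested probe sets were called, 69 higher and 161 lower. Background was set at 16.4, the 95th percentile of signals on the 6 arrays for 99 control probe sets that match foreign sequences. Of 9 listed hemocyte markers, among them srp, Hml, Col4a1 and vkg, 6 lay above background in every array, while Sr-CI, NimC1 and Pxn did not. Pxn rose (log2 change 1.40, limma adjusted p = 4.14e-04) and the other 7 tested markers did not pass. Among these crq, a scavenger receptor, was lower in all 3 spotted-dick arrays (-0.31, limma adjusted p = 0.0552) and passed in 3 of 18 other fits (adjusted p 0.0302 to 0.701 over them), those with robust estimation, without GFP replicate 3 and without spotted-dick replicate 2. Their part in the changes below was not tested. The summed signal of the 9 ran from 12449 to 13116 under GFP RNAi and from 12198 to 12850 under spotted-dick RNAi. Most of it came from Col4a1 (means 4449.8 and 4466.0) and vkg (5470.1 and 5270.6), so the sum says little of the dimmer markers. In bulk samples such as these, fewer cells of a type and less RNA per cell cannot be told apart.

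No tested initiation factor passed the test after spotted-dick depletion. Of 41 tested eIF probe sets, 0 were called higher and 0 lower in limma, against 2.04% of all tested probe sets called (0.613% higher and 1.43% lower). At an unadjusted p under 0.05 there were 8 of 41, with 6 higher and 2 lower, or 19.5% against 12.3% of all tested probe sets. The count was also 0 in each of the other 18 fits made with other scalings, filters, blocks or arrays left out. The lowest adjusted p over all of them was 0.106, for eIF3j without spotted-dick replicate 1.

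After quantile normalization the intervals were narrow for most of these genes. Of the 44 probe sets, 35 (32 genes) lay above background in all 6 arrays and are called measured below. Their fitted changes ran from -0.37 to 0.23 with a median of 0.05, against 0.01 over all tested probe sets. The standard errors ran from 0.04 to 0.20 (as deposited, from 0.15 for eIF1 and eIF4A to 0.24 for eIF4H2). A change of 0.16 for eIF4A, 0.26 for the median member and 0.80 for the dim eIF4H2 would have been needed to pass. The 95% interval of the change lay within 1.2-fold in either direction for 25 of the 35. The same held for 31.7% of the 7367 tested probe sets above background in every array. All 19 members with a mean signal over 1000 had such an interval, as did 78.2% of the 935 tested probe sets that bright. Of these 19, 17 had an estimate above 0, against 55.5% of the 935. The 19 were read on the same 6 arrays and are not independent, and 12 of them are eIF3 subunits. As deposited all 19 lay below 0. Measured from the median over all tested, 16 of the 19 lay above after quantile normalization, against 52.1% of the 935. As deposited 12 of the 19 did, against 42.8%.

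**Figure D1:**
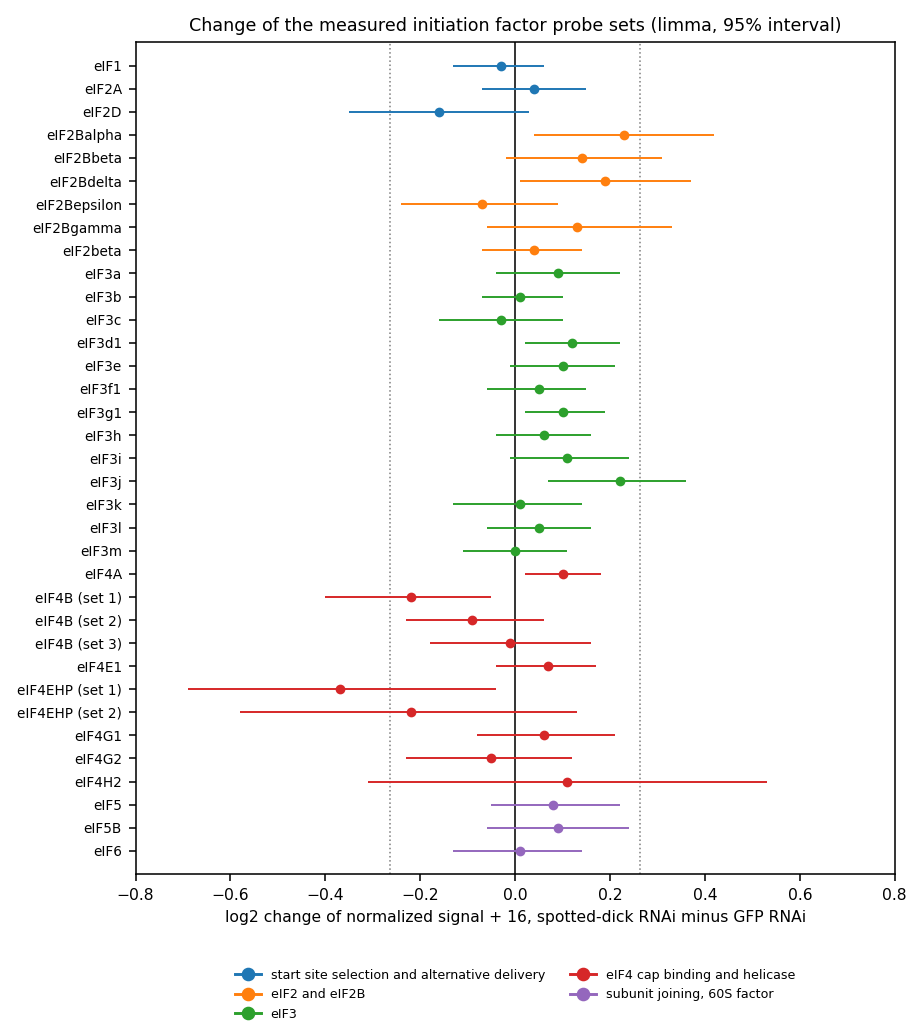
Log2 change (horizontal axis, spotted-dick RNAi minus GFP RNAi, on log2 of normalized signal + 16) of the 35 measured probe sets, by gene and coloured by role. Points are limma estimates, bars 95% intervals and dotted lines a change of 1.2-fold; sets of one gene are numbered by probe set ID. Estimates lie between -0.37 and 0.23, and the widest intervals belong to eIF4EHP and eIF4H2.

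Among factors that act at the start codon, eIF1 had normalized signals of 5857.1, 5395.2 and 5257.9 under GFP RNAi and 5465.5, 5395.2 and 5283.1 under spotted-dick RNAi. The groups overlapped, and the change was -0.03 (95% interval -0.13 to 0.06). The values for eIF2A, a factor that can deliver initiator tRNA apart from eIF2, were a change of 0.04 (-0.07 to 0.15). eIF2D, known as ligatin in mammals and linked to reinitiation and ribosome recycling, had signals of 272.0, 272.6 and 270.1 under GFP RNAi and 218.7, 250.8 and 257.2 under spotted-dick RNAi. All 3 spotted-dick values for eIF2D lay under all 3 GFP values, but its change of -0.16 ± 0.09 (SE) did not pass (limma adjusted p = 0.515). Groups did not overlap for 9 of the 35 measured members, or 25.7%, against 20.9% of all tested probe sets above background in every array.

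The initiator tRNA carrier was represented by eIF2beta, with signals of 2635.5 ± 126.0 under GFP RNAi and 2699.1 ± 48.1 under spotted-dick RNAi (SD, n = 3). Its change was 0.04, with a 95% interval of -0.07 to 0.14. The exchange factor eIF2B has a regulatory core of alpha, beta and delta subunits and a catalytic pair of gamma and epsilon, and all 5 were measured. None of the 5 was called. Of their estimates, 4 were above 0 with a median of 0.14, and all 5 were below 0 as deposited. Over all tested probe sets above background in every array, 53.3% were above 0 after quantile normalization. Measured from the median over all tested probe sets, the deposited changes ran from -0.12 for eIF2Bepsilon to 0.17 for eIF2Balpha. On that scale only eIF2Bepsilon lay below 0. The 5 were read on the same 6 arrays and are not independent.

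The regulatory subunit eIF2Balpha had signals of 221.3, 207.9 and 241.3 under GFP RNAi and 257.0, 278.9 and 257.9 under spotted-dick RNAi. The groups did not overlap, and the change was 0.23 ± 0.09 (SE; 95% interval 0.04 to 0.42; limma adjusted p = 0.294). eIF2Bbeta had signals of 336.1, 348.5 and 356.9 and then 361.2, 395.9 and 399.9, a change of 0.14 (limma adjusted p = 0.492), again with no overlap. eIF2Bdelta had signals of 483.3, 428.7 and 475.9 under GFP RNAi and 582.1, 474.5 and 532.6 under spotted-dick RNAi. Its groups overlapped, since spotted-dick replicate 2 lay among the GFP values, and the change was 0.19 (limma adjusted p = 0.385).

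The estimates for the catalytic subunits of eIF2B differed in sign, and neither passed. eIF2Bgamma had signals of 303.3, 295.1 and 292.5 under GFP RNAi and 373.3, 293.9 and 319.4 under spotted-dick RNAi, a change of 0.13 (95% interval -0.06 to 0.33). Spotted-dick replicate 1 was the highest array. Without it, changes measured from the overall median went from 0.13 to 0.03 for eIF2Bgamma and from 0.18 to 0.11 for eIF2Bdelta. eIF2Bepsilon, which carries the exchange activity, had signals of 413.0, 373.1 and 379.0 under GFP RNAi and 381.5, 372.6 and 351.0 under spotted-dick RNAi, a change of -0.07 (-0.24 to 0.09). The difference between the subunits was not tested. The arrays were washed on 2 fluidics stations, with GFP replicates 1 and 2 and spotted-dick replicate 1 on the first. The median eIF2B change was 0.24 within the first station and 0.08 within the second, where each rests on a single array of one group.

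All 13 canonical subunits of eIF3 were measured, from eIF3a to eIF3m with eIF3d1, eIF3f1 and eIF3g1 standing for d, f and g. None was called, and estimates ran from -0.03 for eIF3c to 0.22 for eIF3j with a median of 0.06. Of the 13, 12 were above 0, against 53.3% of all tested probe sets above background in every array, and all 13 were below 0 as deposited. Measured from the overall median, the deposited changes ran from -0.07 for eIF3c to 0.16 for eIF3j. On that scale eIF3b, eIF3c, eIF3h, eIF3k and eIF3m lay below 0 and the rest above. These 13 probe sets were read on the same 6 arrays and are not independent, and all but eIF3j are among the 19 bright members above.

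The loosely bound subunit eIF3j, which helps eIF3 engage the small subunit, had the smallest p of all members. Its signals were 922.1, 874.2 and 930.8 under GFP RNAi and 989.7, 1163.2 and 1026.7 under spotted-dick RNAi. The groups did not overlap, and the change was 0.22 ± 0.07 (SE; 95% interval 0.07 to 0.36; unadjusted p = 0.00668, limma adjusted p = 0.163). Within the first and second station it was 0.14 and 0.23. As deposited, before normalization, eIF3j had 1211.6, 961.2 and 814.4 against 851.4, 1130.2 and 899.6, so the groups overlapped on that scale.

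eIF3d1, an RNA-binding subunit that contacts the cap of some mRNAs in mammals, had signals of 2957.8, 3036.5 and 3180.7 under GFP RNAi and 3461.3, 3299.2 and 3214.6 under spotted-dick RNAi. eIF3g1, another RNA-binding subunit, had signals of 4081.8, 4050.9 and 4142.3 and then 4254.6, 4395.0 and 4548.2. In both genes every spotted-dick array lay above every GFP array. The changes were 0.12 ± 0.05 and 0.10 ± 0.04 (SE; limma adjusted p = 0.292 and 0.299), folds whose 95% intervals reach at most 1.16 and 1.14.

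The other 10 eIF3 subunits had changes between -0.03 and 0.11, overlapping groups, and 95% intervals inside -0.16 to 0.24. They include the scaffold subunits eIF3a and eIF3c (0.09 and -0.03), the subunits eIF3b and eIF3i of the mobile module (0.01 and 0.11), and the PCI- and MPN-domain subunits eIF3e, eIF3h, eIF3k, eIF3l and eIF3m (0.10, 0.06, 0.01, 0.05 and 0.00). eIF3f1, likewise an MPN-domain subunit, had a change of 0.05.

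**Figure D2:**
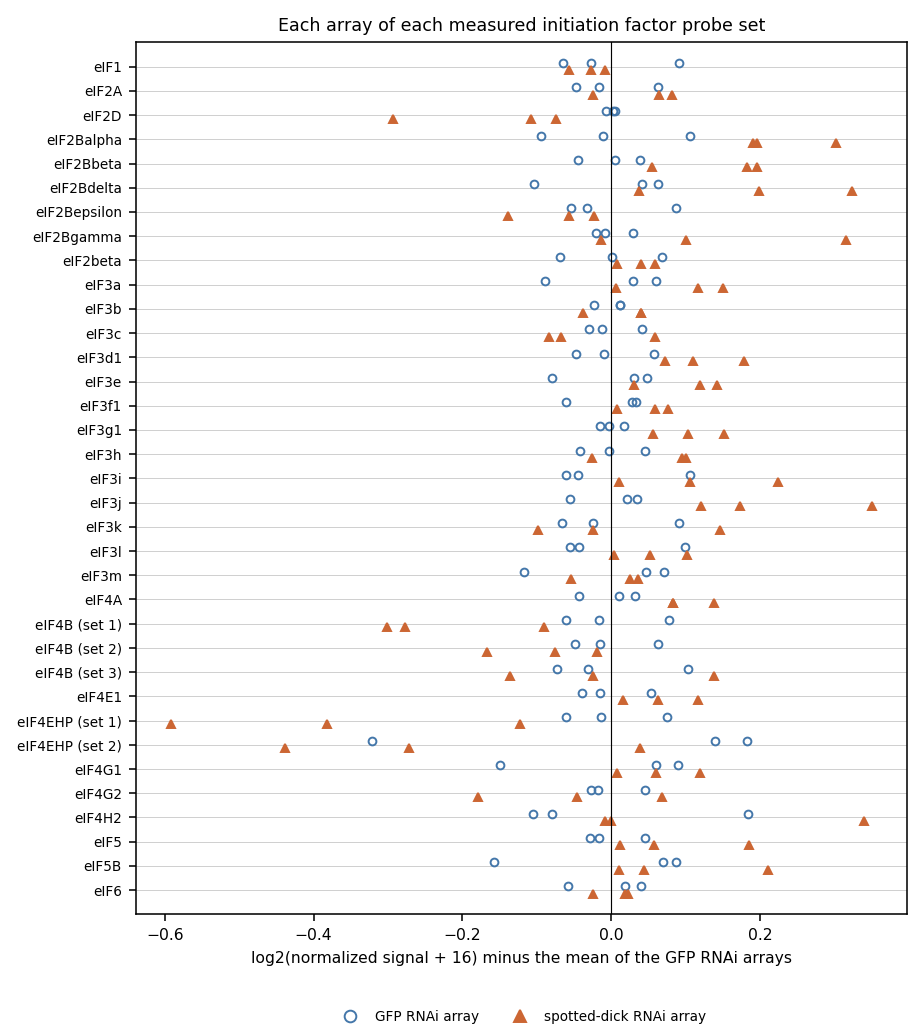
Each array of the 35 measured probe sets, as log2(normalized signal + 16) minus the mean of the GFP arrays (horizontal axis), with GFP RNAi arrays as open circles and spotted-dick RNAi arrays as triangles. Groups separate for 9 of the 35, among them eIF2Balpha, eIF3j and eIF4A above the GFP arrays and eIF2D and 1 set each of eIF4B and eIF4EHP below them.

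The cap-binding and helicase factors held both the brightest member and those with the lowest estimates. eIF4A, the DEAD-box helicase that unwinds the leader of the mRNA, had signals of 5641.0, 5857.1 and 5946.0 under GFP RNAi and 6396.6, 6159.6 and 6159.6 under spotted-dick RNAi. Every spotted-dick array lay above every GFP array, but the change of 0.10 ± 0.04 (SE; 95% interval 0.02 to 0.18) did not pass (limma adjusted p = 0.264). The scaffold eIF4G1 had 1094.8 ± 97.9 and 1141.3 ± 45.3 (SD, n = 3), a change of 0.06 (-0.08 to 0.21). The main cap-binding protein eIF4E1 had 2056.0 ± 69.4 and 2151.9 ± 75.9, a change of 0.07 (-0.04 to 0.17). Neither pair of groups separated.

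eIF4EHP, an eIF4E relative that binds the cap without eIF4G and represses chosen mRNAs, was read by 2 probe sets. In set 1 (numbered as in the plot of changes) signals were 63.2, 71.0 and 65.8 under GFP RNAi and 59.9, 38.8 and 47.4 under spotted-dick RNAi, with no overlap. In set 2 they were 85.6, 57.8 and 88.7 and then 52.1, 60.4 and 78.8, with overlap. Both estimates lay below 0, at -0.37 (95% interval -0.69 to -0.04; limma adjusted p = 0.323) and -0.22 (-0.58 to 0.13; adjusted p = 0.651). With 1 array left out, set 2, at -0.23 measured from the overall median, lay between -0.39 (without GFP replicate 2) and -0.13 (without spotted-dick replicate 1). The intervals are wide, and the signals lay only a few times above background. The mean of both sets gave -0.29 ± 0.13 (SE, limma adjusted p = 0.335).

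eIF4B, an RNA-binding helper of eIF4A, was read by 4 probe sets, of which 3 were measured. Set 1 had signals of 450.5, 497.7 and 465.0 under GFP RNAi and 441.2, 385.6 and 378.9 under spotted-dick RNAi, lower in all 3. Its change was -0.22 ± 0.08 (SE; limma adjusted p = 0.240). Set 2 had signals of 778.2, 735.9 and 718.9 under GFP RNAi and 660.7, 734.0 and 705.0 under spotted-dick RNAi. Set 3 ran from 611.4 to 742.7, both under spotted-dick RNAi. The changes of sets 2 and 3 were -0.09 (95% interval -0.23 to 0.06) and -0.01 (-0.18 to 0.16), with overlapping groups, and the intervals of all 3 sets overlapped. The remaining set lay under background in 5 of 6 arrays and gives no usable change. Differences between the sets were not tested.

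The subunit joining factors eIF5 and eIF5B and the large-subunit factor eIF6 had estimates between 0.01 and 0.09, and none passed. eIF5, the GTPase activator of eIF2, had signals of 965.5 ± 27.0 and 1026.1 ± 65.9 (SD, n = 3), a change of 0.08 (95% interval -0.05 to 0.22). eIF5B, the GTPase that joins the subunits, had 1655.9 ± 153.4 and 1759.8 ± 134.9, a change of 0.09 (-0.06 to 0.24). eIF6 had 686.9 ± 24.9 and 689.3 ± 12.3, a change of 0.01 (-0.13 to 0.14). In all 3 genes the groups overlapped.

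Of the 9 probe sets that failed the background criterion, 8 belonged to paralogues of other factors. Of the 9 such probe sets, 3 lay at or under 16.4 in every array, those of eIF4E4, eIF4E5 and eIF4E7. The other 6 were those of eIF3d2, eIF3f2, eIF3g2, eIF4E3, eIF4E6 and the eIF4B set named above, each over background in 1 to 3 arrays. Over the 9 sets, signals ran from 0.6 to 23.3, and 9 of the 54 array values lay over background. For eIF3d, eIF3f and eIF3g, the probe set of the first copy was thus measured in every array and that of the second copy was not. Since probes differ in how strongly they bind, this sets each probe set against background and not against its paralogue.

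The probe sets with the largest fitted differences belonged to this dim class, so no fold is given for them. eIF4E4 had signals of 7.9, 5.9 and 1.1 under GFP RNAi and 15.2, 12.4 and 12.9 under spotted-dick RNAi, all under background (limma adjusted p = 0.436). eIF4E6 had 20.6, 17.3 and 15.3 under GFP RNAi and 2.8, 2.6 and 18.3 under spotted-dick RNAi, with overlap (adjusted p = 0.427). eIF3f2 had 14.5, 3.5 and 13.6 under GFP RNAi and 14.9, 23.3 and 16.1 under spotted-dick RNAi (adjusted p = 0.572), with no overlap. eIF4E3 ran from 2.4 to 21.9, both under spotted-dick RNAi (adjusted p = 0.991). The sets of eIF3d2, eIF4E5 and eIF4E7 fell below the filter on dim probe sets and were not tested. Not well above background does not mean absent.

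Several eIF4E copies, eIF4E3 in particular, are known for roles in the testis. Whether the dim signals of these copies relate to the cell type was not tested. None of 8 listed testis markers (bam, can, aly, sa, dj, Mst87F, Mst98Ca and betaTub85D) lay above background in every array. Their summed signal ran from 45.1 to 93.6 under GFP RNAi and from 28.9 to 64.3 under spotted-dick RNAi. eIF4G2, an eIF4G1 paralogue needed for male germ cell development in the fly, was measured. It had signals of 418.7, 400.1 and 397.3 under GFP RNAi and 425.6, 392.1 and 356.1 under spotted-dick RNAi. Its change was -0.05 (95% interval -0.23 to 0.12). eIF4H2 lay just above background, between 18.7 and 31.2, with a change of 0.11 (-0.31 to 0.53).

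**Figure D3:**
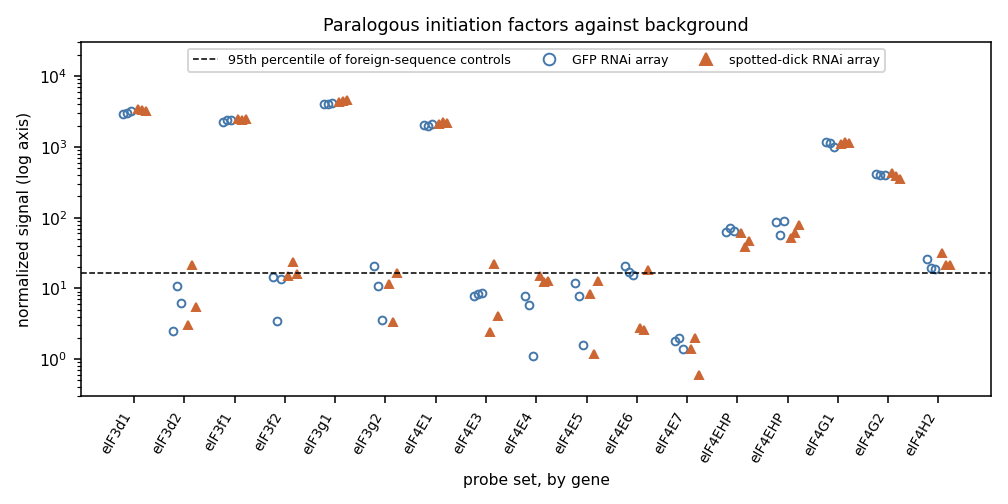
Normalized signal (vertical log axis) of the eIF3, eIF4E, eIF4G and eIF4H probe sets that have paralogues, in GFP RNAi arrays (open circles) and spotted-dick RNAi arrays (triangles), with the background level of 16.4 as a dashed line. eIF3d1, eIF3f1, eIF3g1, eIF4E1, eIF4EHP, eIF4G1, eIF4G2 and eIF4H2 lie above the line in every array; the other copies scatter around or under it.

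The array also carries 3 control probe sets for eIF4A, at the 5′ end, the middle and the 3′ end of the transcript, which the rule did not select and which give further readings of the same gene. The middle set had signals of 3280.5, 3291.8 and 3445.9 under GFP RNAi and 3775.5, 3518.4 and 3495.0 under spotted-dick RNAi. Its groups did not overlap, as for the annotated eIF4A set, and the difference was 0.11 ± 0.04 (SE from the arrays, n = 3). The 5′ set gave 0.07 ± 0.08 and the 3′ set 0.04 ± 0.02, both with overlapping groups. All 4 readings of eIF4A thus lay between 0.04 and 0.11 on the normalized scale, in the same RNA samples.

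The ratio of the 3′ to the 5′ control signal is used as a measure of RNA integrity and labelling. On the deposited signals, for eIF4A it came to 8.0, 8.14 and 9.32 under GFP RNAi and 8.09, 8.29 and 9.53 under spotted-dick RNAi. The groups overlapped, with means of 8.49 ± 0.72 and 8.64 ± 0.78 (SD, n = 3). For actin the deposited ratios had means of 2.75 ± 0.13 and 2.86 ± 0.12, and for GAPDH 3.24 ± 0.23 and 3.59 ± 0.52. Their part in the changes above was not tested.

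**Figure D4:**
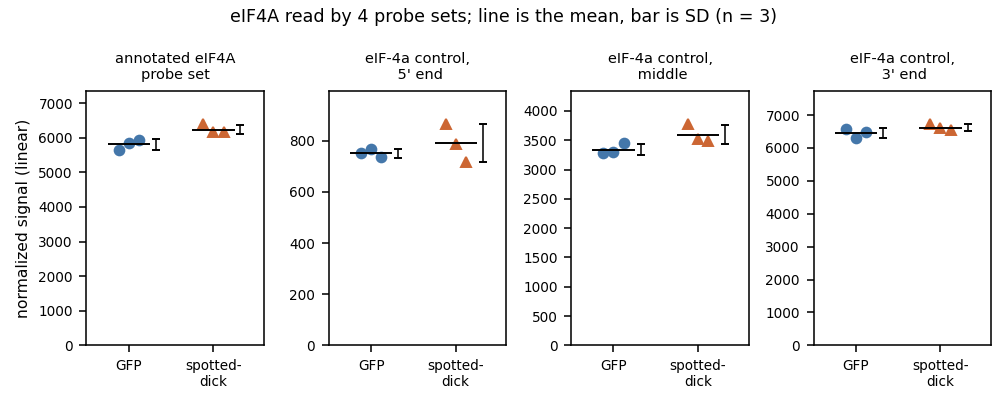
Normalized signal (linear vertical axis from 0) of the annotated eIF4A probe set and of the 3 eIF-4a control sets in the GFP RNAi (circles) and spotted-dick RNAi (triangles) arrays; the line is the mean and the bar the SD (n = 3). The spotted-dick arrays lie above the GFP arrays in the annotated and the middle set, and the groups overlap at both ends.

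The sign of 25 of the 35 measured changes differed between scalings, being above 0 after quantile normalization and below 0 as deposited, while the other 10 were below 0 on both scales. In the deposited values GFP replicate 1 was the brightest array for all 35 measured members, and all 35 had changes below 0, from -0.62 to -0.03 with a median of -0.19. That followed the arrays as a whole, whose tested probe sets had a median change of -0.20 and were 82.9% below 0. None of the members passed as deposited either (lowest limma adjusted p = 0.183, against 1.24% of all tested probe sets called). Measured from the overall median, 19 of the 35 lay above as deposited and 23 of 35 after quantile normalization. The members' median lay 0.01 and 0.05 above that of all tested probe sets in those settings, and 0.06 above it after scaling to the hybridisation controls.

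**Figure D5:**
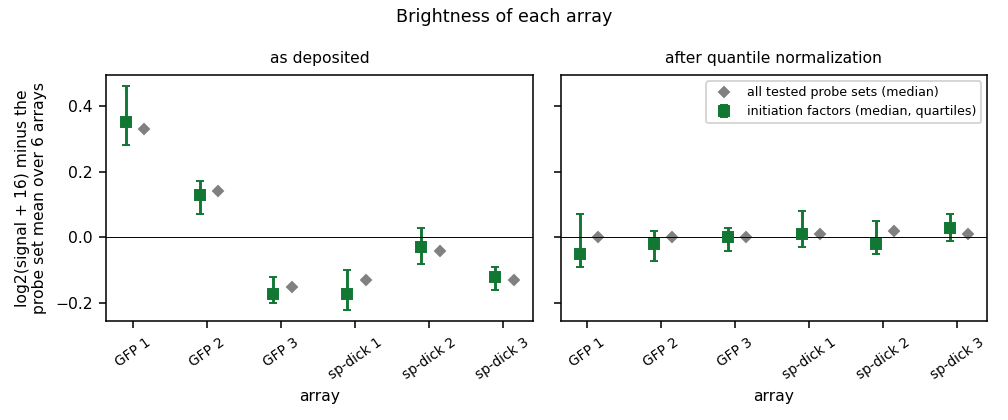
Deviation of each array from the mean of all arrays (vertical axis, log2 of signal + 16), as the median and quartiles over the 35 measured members (squares) and the median over all tested probe sets (diamonds). As deposited, both are highest in GFP replicate 1, at 0.35 and 0.33; after quantile normalization both stay between -0.05 and 0.03 in every array.

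The other genes of the translation pathway gave the same count. Of 38 listed regulators of initiation, elongation factors, termination and recycling factors and related enzymes, 29 had a tested probe set of their own. Thor, cup, pix, Tor, eEF1alpha1, eEF1beta, eEF2, eEF2K and MetRS had none and are not covered. Of the 29, none was called in limma (2.04% of all tested probe sets were), and the median change was 0.02. At an unadjusted p under 0.05 there were 2, where 12.3% of all tested probe sets had such a p. The smallest p belonged to Paip2, an inhibitor of the poly(A)-binding protein. Its signals were 476.9, 480.4 and 546.2 under GFP RNAi and 478.1, 381.1 and 372.8 under spotted-dick RNAi, which overlapped. Its change was -0.28 ± 0.10 (SE, limma adjusted p = 0.198), and it passed only when spotted-dick replicate 1 was left out (-0.40, adjusted p = 0.0332). Within the first fluidics station the Paip2 change was -0.00 and within the second -0.52, and each rests on a single array of one group.

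After Paip2 came the elongation factor subunit eEF1gamma (-0.12 ± 0.05, SE, limma adjusted p = 0.298), the eIF4A inhibitor Pdcd4 (-0.13 ± 0.07, adjusted p = 0.477) and eEF1delta (0.10 ± 0.06, adjusted p = 0.519). Genes of the eIF2 stress pathway, the kinases Gcn2 and PEK, the phosphatase regulator PPP1R15 and the downstream transcription factor crc, had changes of 0.05, 0.02, 0.05 and 0.04, all with adjusted p above 0.8. eEF5, the hypusine-bearing factor formerly named eIF5A, had a change of -0.01 ± 0.04 (SE, limma adjusted p = 0.948).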

How the data were processed

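RNA of 3 GFP RNAi and 3 spotted-dick RNAi samples of S2 cells was hybridised to Affymetrix Drosophila_2 arrays, per the file headers. The authors deposited 1 linear intensity per probe set and array; how the authors combined probes, corrected background or scaled arrays is not given in the sources used here. Trimmed mean intensities (2% from each end) differed 1.51 times between arrays, so the 18769 fly probe sets were quantile normalized, where an earlier treatment of these data had used them as deposited. The fit was limma 3.58.1 in R 4.3.3 (lmFit, eBayes with an intensity trend) on log2(signal + 16), with probe sets whose mean lay below the 40th percentile left out and Benjamini-Hochberg adjustment over all 11261 tested, two-sided. It had 14.6 degrees of freedom. On simulated data it called 84.4% of changes of 1 log2 unit and 83.8% of changes of 2. Of its calls there, 4.3% were unchanged probe sets. Changes under 1 log2 unit were not simulated. The changed probe sets were drawn from all tested ones, dim ones included, so these rates are not specific to the eIF members. Simulated signals stopped at a floor and the filter was applied again, which can keep dim sets from being called. A dim probe set's fold is understated by the added 16. The number of arrays limits precision.

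Alternatives were the deposited values, median centring, scaling to hybridisation controls, pseudocounts of 1 and 64, no filter or one at the 60th percentile, no trend, robust estimation, replicate or station blocks, and leaving out each array. The members and lists were chosen with earlier results of these data known. Every member is accounted for, and by rule values by array or their range are given for the 8 highest and 8 lowest tested estimates, eIF2, the cap-binding factors, genes with several probe sets and dim sets, and values for the 4 list genes with the smallest p. For eIF2beta, eIF4E1 and eIF4G1 the mean and SD stand in their place, and some dim sets have only the range over all dim sets. Array values of eIF1 and eIF3g1, and the values of Gcn2, PEK, PPP1R15, crc, eEF5, crq and Pxn, fall outside that rule and were chosen after they were seen. All 44 gene IDs matched the RefSeq gene table (Release 6), used for names only. Of the members, 5 probe sets have IDs ending in s_at and may read other transcripts too. All 6 arrays were scanned on 1 day, GFP before spotted-dick, so group and order of scanning cannot be told apart. Plots used matplotlib 3.10.9 (Python 3.11.15).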

Additional observations from a re-analysis of the deposited data

How the results depend on the processing

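The count of called eIF probe sets stayed 0 in both directions in all 18 other fits, and at 0 when a gene's probe sets were averaged. The count over all tested probe sets, 230, was 140 as deposited, 126 with no filter, 53 with no intensity trend and, added after seeing the data, 92 as deposited with the station as a block; it ran from 115 without GFP replicate 2 to 249 without spotted-dick replicate 2, with 144 without GFP replicate 3 and 143 without spotted-dick replicate 3. The median change of tested eIF probe sets, 0.05, was -0.18 as deposited, 0.10 with scaling to the hybridisation controls and -0.13 as deposited with the station block, and 0.04 to 0.07 with 1 array left out. The pathway list, with 0 calls, had 0 to 1 with 1 array left out, Paip2 being the 1 without spotted-dick replicate 1.

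Relative to all tested probe sets, the change of eIF4E1 went from 0.06 to -0.00 as deposited with the station block. Counting this as no reversal, 14 of the 18 named measured probe sets kept their sign, to 2 decimals, in every fit and both stations. The exceptions were small: eIF4B set 3 (-0.09 to 0.05 with 1 array left out, above 0 without GFP replicate 1, 0.04, or spotted-dick replicate 1; 0.12 within station 2), eIF2beta (-0.01 without GFP replicate 2 to 0.06 without GFP replicate 3, -0.02 as deposited with the station block, -0.03 within station 2), eIF4G1 (-0.02 without GFP replicate 3, -0.08 within station 1) and eIF4G2 (0.04 within station 1). With 1 array left out, 12 of the 18 moved by over 1.5 times: besides these 4, eIF2Bgamma, eIF2Bdelta and eIF4EHP set 2, eIF3j (0.21, 0.14 without spotted-dick replicate 2), eIF2D (-0.17, -0.10 without spotted-dick replicate 1), eIF4B set 2, eIF2Bepsilon and eIF4E1. The cause was not tested. Deviations of same-numbered arrays from their group means had correlations of -0.065, -0.033 and 0.050, against -0.065 to 0.101 for other pairs. Each mean rests on 3 arrays, so this cannot tell whether the numbers pair samples. With the replicate block 198 probe sets were called, 0 of them eIF. Signals under background limit what can be said of the 9 dim probe sets.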
